A study of Mus musculus with 31 samples.

Results

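The cortex of mice homozygous for the Q150 knock-in allele of huntingtin (HOMO) was compared with that of wild-type mice (WT) of the same file set, exon by exon, in 4 HOMO and 5 WT mice of the 31 mice of the series. The groups came from the genotype given in the labels, Wildtype (Q7/Q7) for the controls and 150Q/150Q for the HOMO mice, and the WT mice were those numbered 1, 79, 80, 402 and 404, whose files list the same 1785 splicing events in 1463 genes as the Q150 mutants. The HOMO mice were numbered 34, 35, 403 and 421. RNA was total RNA of the cortex from 1 hemisphere of untreated mice. The knock-in places an expanded CAG tract in the mouse's own huntingtin gene, so that every cell that normally makes huntingtin makes the mutant protein, and HOMO mice have no normal allele. The allele belongs to the B6.129P2-Htt tm2Detl/150J line, the genotype field of the labels opens with the name of another line (Q175) for these mice, and the number of glutamines decided the group. The age given for the line was 7 months, and the text that gives it in the methods exchanges the numbers of homozygotes of both knock-in lines relative to the labels, while other passages give the same ages without those numbers, or the numbers as the labels do. The methods state that sexes were balanced, and the labels give no sex.

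Huntington's disease is caused by expansion of a CAG repeat in huntingtin, which lengthens a run of glutamines in the protein. Most mammalian genes are spliced in more than one way, and a cassette exon is either joined between its neighbours or left out when the neighbours are joined directly. Neurons use many short cassette exons in receptors, cytoskeletal linkers and adhesion proteins, and the choice is set by RNA-binding proteins such as the RBFOX, MBNL, CELF, PTBP and hnRNP families, several of which are themselves controlled by alternative exons in their own transcripts. RASL-seq reads that choice with pairs of oligonucleotides that anneal at the 2 sides of a junction and are ligated and counted. Each cassette exon, the type of 1720 of the 1785 events, has a short count, of the junction that leaves the exon out, and a long count, of a junction that includes it. In the 30 alternative 3' splice site, 20 alternative 5' splice site events and the 15 events of the type TwoMulx, a name the files do not explain, short and long are the files' names for the 2 alternative junctions, and exclusion there means only the share of the short one. Exclusion, in percent, is the part of an event's counts that fell on its short junction.

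Between 2970207 and 5219877 counts were recorded per mouse, and 22.4 to 124630 counts per event on average over the 9 mice. Mice with numbers under 100 (2 HOMO, 3 WT) and in the 400s (2 HOMO, 2 WT) formed 2 series, between which 124 events differed with genotype as a term (limma, adjusted p under 0.05), and the series was therefore a term in every test. Some events reuse a junction: 119 events had a short or a long count equal to a count of another event in every mouse, 9 pairs of events had both counts equal, and in 39 pairs the short junction of 1 event was the long junction of the other. Marker genes of cortical cell types were few among the events. Summed CPM (counts scaled to a common library total) of the 4 oligodendrocyte events (Mag, Mbp, Mobp, Plekhb1) ran from 11689 to 19262 in WT and from 11809 to 20892 in HOMO mice, those of the 4 neuronal events (Mapt, Mtap2, Syt1) from 32370 to 38714 and from 29450 to 33015, and those of the astrocyte gene Ndrg2 from 11700 to 16603 and from 9067 to 14273. Most of the neuronal sum was Syt1, and the other 3 neuronal events had changes of 0.11, 0.15 and 0.09, none of them called. Syt1 and Ndrg2 were lower in HOMO mice (log2 changes of -0.24 ± 0.07 and -0.35 ± 0.12 (SE), limma adjusted p = 0.024 and 0.041), and the endothelial gene Pecam1 was higher (0.51 ± 0.15, adjusted p = 0.022). Ndrg2 was lower in the low series, with 9600 and 9067 CPM in HOMO and 14500, 16603 and 14050 in WT mice, but not in the high series, with 13235 and 14273 in HOMO and 11700 and 14932 in WT mice. The part of cell composition in the changes below was not tested, and fewer cells of a type and less RNA per cell cannot be told apart in this tissue. No event of the microglial or striatal marker genes was measured here, so the labelled cortex was checked only by the presence of its neuronal and glial genes.

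The first question was whether exons were left out more often in HOMO cortex as a whole. Mean exclusion over the 1785 events was 44.5%, 44.9%, 44.5%, 44.5% and 44.7% in WT mice 1, 79, 80, 402 and 404, and 46.7%, 46.9%, 46.1% and 46.0% in HOMO mice 34, 35, 403 and 421. Every HOMO mouse lay above every WT mouse, and the HOMO mice numbered under 100 lay above those in the 400s. The means were 46.4% ± 0.482 (SD, n = 4) and 44.6% ± 0.175 (SD, n = 5), a difference of 1.86 ± 0.19 percentage points (SE) with the series as a term. A two-sided exact permutation test within the series gave p = 0.0167, the smallest that its 60 arrangements allow. The median in place of the mean over events differed by 3.42 points, and the share of all counts that were short by 1.71 points. Without any 1 of WT mice 1, 79 and 80 the difference still had the same direction, but the exact p was 0.0556, the smallest that the remaining 36 arrangements allow.

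**Figure D1:**
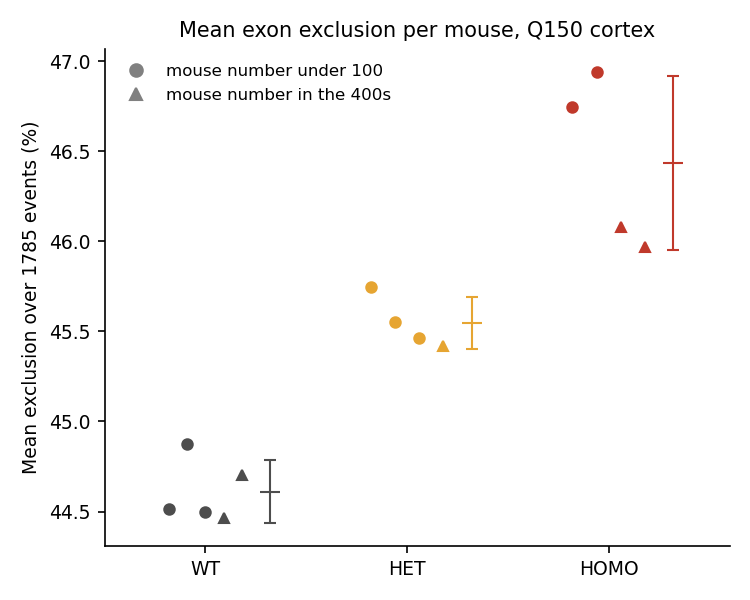
Mean exclusion over 1785 events (%, axis not starting at 0) for each mouse of the Q150 set, with circles for mouse numbers under 100 and triangles for numbers in the 400s, and bars for mean and SD. The 4 HOMO mice sit between 46.0% and 46.9%, above the 5 WT mice at 44.5% to 44.9%, and the 4 HET mice, with 1 mutant allele, lie between 45.4% and 45.7%.

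By single events, exclusion changed in 513 of 1785 events, 28.7%, when the log2 ratio of short to long counts was fitted by limma and called at an adjusted p under 0.05. It was higher in HOMO mice in 419 events (23.5% of those tested) and lower in 94 (5.27%). The 419 events lay in 385 genes and rose by a median of 5.69 percentage points, 106 of them by more than 10 points, with a maximum of 28.8. The 94 events that fell had a median change of -5.07 points, and 17 of them fell by more than 10. Of all events, called or not, 67.1% had a change above 0, and the median event lay at 0.19 on the log2 scale. Measured against that median event, 424 events were called with 217 higher and 207 lower, a split that centring makes near even by construction. Leaving out the events that reuse a junction left 478 of 1666 called, 393 of them higher. The fit on the low series called 387 events (311 higher) and the fit on the high series, with 2 mice against 2, called 148 (131 higher). HOMO and WT mice did not overlap within either series in 505 events (28.3% of all events), of which 395 were higher in HOMO, and did not overlap over all 9 mice in 324.

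**Figure D2:**
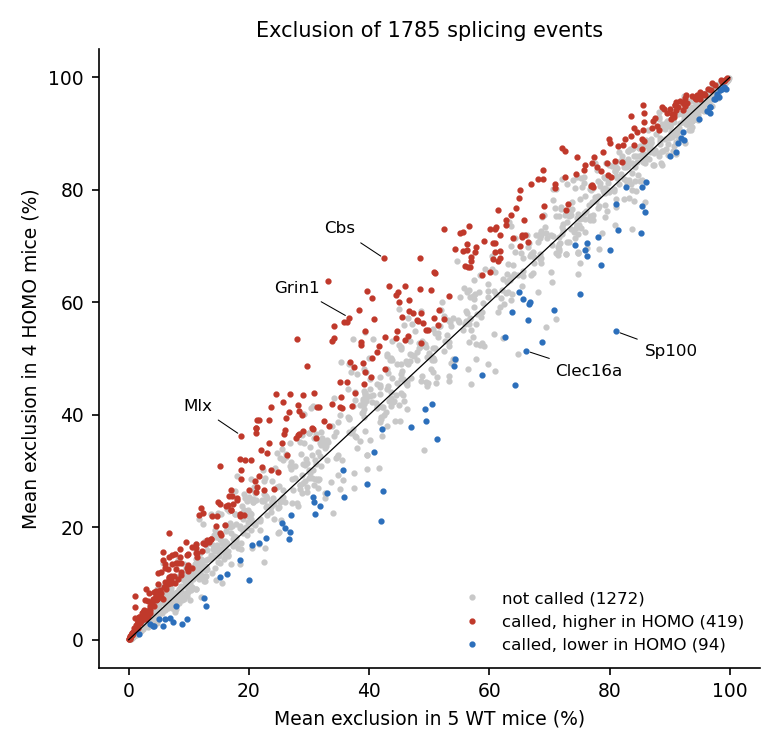
Mean exclusion (%) of each of 1785 events in 4 HOMO mice (vertical) against 5 WT mice (horizontal), with called events in red (419 higher) and blue (94 lower) and the line of equal values. Red points lie above the line over the whole range, with Cbs at 42.5% and 67.8% and Grin1 at 36.7% and 57.3%, and Sp100 is the blue point farthest below it, at 81.1% and 54.8%.

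Exclusion can rise because the skipped form gains or because the included form is lost, and both were seen. Among the 419 events that rose, the short junction was higher and the long junction lower in 289, both were higher in 99 and both lower in 31, in CPM. The short junction moved more than the long one in 284 of them, and the median log2 changes were 0.50 for the short and -0.19 for the long junction. Among the 94 events that fell, the long junction moved more in 61, with medians of -0.21 for the short and 0.37 for the long junction. The total of both junctions was called higher in 114 and lower in 59 of the 419 rising events and higher in 17 and lower in 10 of the 94 falling ones, beside 356 higher and 169 lower of all 1785 events (29.4% called), a split that turned to 214 higher and 262 lower when abundance was centred on the median event.

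**Figure D3:**
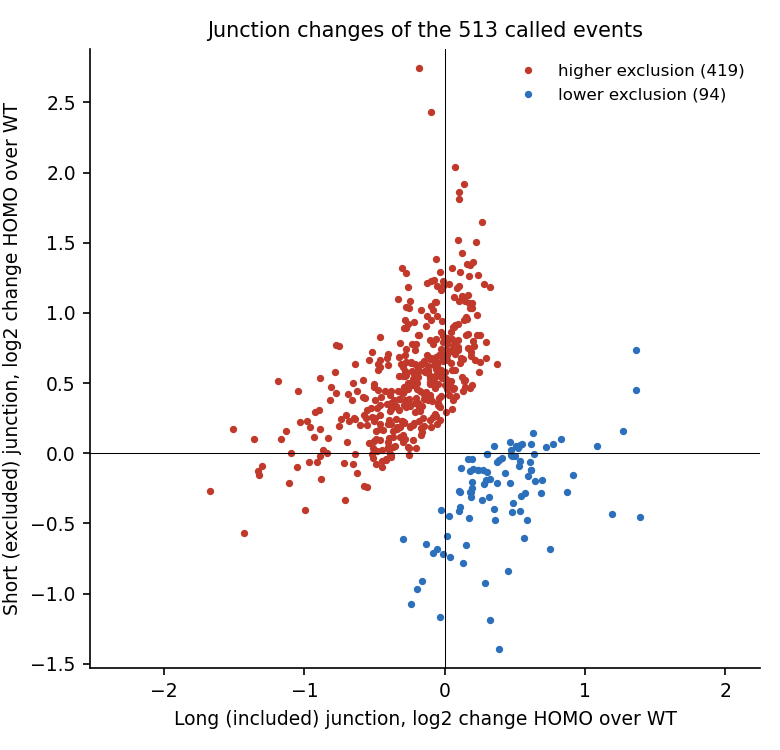
Log2 change, HOMO over WT, of the short (excluded) junction against that of the long (included) junction for the 513 called events, each as CPM. Most red points lie where the short junction was higher, and the farthest are Rbm5 and Hnrpdl at short-junction changes of 2.75 and 2.43 with long-junction changes of -0.18 and -0.10.

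Transcripts of splicing regulators and other RNA-binding proteins were among those that changed. Of 95 events in 73 such genes 36 were called, 29 with higher and 7 with lower exclusion, a share of 37.9% beside 28.7% of all events, and their median change of 0.23 stands beside 0.19 for all events. Their median event had 1274 counts against 712, and the share called depends on counts, as given below. The largest change on the log2 scale, though not in points, belonged to Rbm5 (chromosome 9, 107652130 to 107652793). Rbm5 encodes an RNA-binding protein of the early spliceosome that influences exon skipping in apoptosis genes. Its exclusion was 1.48%, 0.893%, 1.08%, 0.648% and 1.17% in the WT mice and 10.5%, 5.96%, 8.81% and 5.81% in the HOMO mice, in the order of mouse numbers given above. Every HOMO mouse was thus at least several times above every WT mouse, and the log2 change was 2.93 ± 0.30 (SE, limma adjusted p = 1.22e-07). The event had 531 to 912 counts per mouse, and its short junction 1.17 to 2.36 CPM in WT mice. The size of the change thus rests on few short counts in WT mice. A separate Rbm5 event (chromosome 9, 107656819 to 107659239) rose from 2.86% ± 1.09 (SD, n = 5) to 8.94% ± 1.25 (SD, n = 4), and 3 Rbm5 events were called higher in all.

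Hnrpdl (now Hnrnpdl), an hnRNP protein that binds AU-rich RNA, had 2 events called in opposite directions that share no junction count. At chromosome 5, 100465214 to 100465880, exclusion was 1.06%, 1.14%, 1.04%, 0.855% and 1.11% in WT and 6.01%, 7.55%, 5.40% and 4.03% in HOMO mice, on 7852 to 13002 counts per mouse. The neighbouring event, 100464003 to 100465122, was excluded at 85.8%, 87.0%, 85.7%, 86.6% and 85.3% in WT and 82.5%, 80.2%, 82.3% and 80.6% in HOMO mice. The groups did not overlap in either event, and the changes were 2.53 ± 0.14 and -0.50 ± 0.08 on the log2 scale (limma adjusted p = 2.31e-12 and 7.51e-05). In the first the short junction rose alone (2.43 against -0.10 for the long), and in the second the long junction rose alone (0.48 against -0.02).

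Sfrs8 (now Sfswap), an SR-like regulator of splicing, and Clk4, a kinase that phosphorylates SR proteins, both left out more of their exon. Sfrs8 exclusion was 70.3%, 70.6%, 72.0%, 69.8% and 77.5% in WT and 91.4%, 87.0%, 87.4% and 83.6% in HOMO mice, a log2 change of 1.47 ± 0.16 (limma adjusted p = 3.03e-07) that came from the long junction (-1.36, against 0.10 for the short). Clk4 exclusion was 47.8%, 41.5%, 36.1%, 33.1% and 39.8% in WT and 70.3%, 59.1%, 51.4% and 67.7% in HOMO mice (1.36 ± 0.25), on only 93 to 183 counts per mouse. Neither pair of groups overlapped. Other called members of the list were Mbnl1, Mbnl2, Celf4, Rbfox2, Ptbp2, Hnrnpk, Hnrnpa1, Tia1 and Fmr1 among those that rose, and Snrp70, Hnrnpd, Ythdf3 and Ddx50 among those that fell. Tsr1, a ribosome assembly factor counted in this list, rose from 1.04% ± 0.350 (SD, n = 5) to 3.82% ± 0.348 (SD, n = 4). Htt, Tardbp and Mettl3 had no event among those listed, so the mutant huntingtin transcript itself gives no check of the labels.

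**Figure D4:**
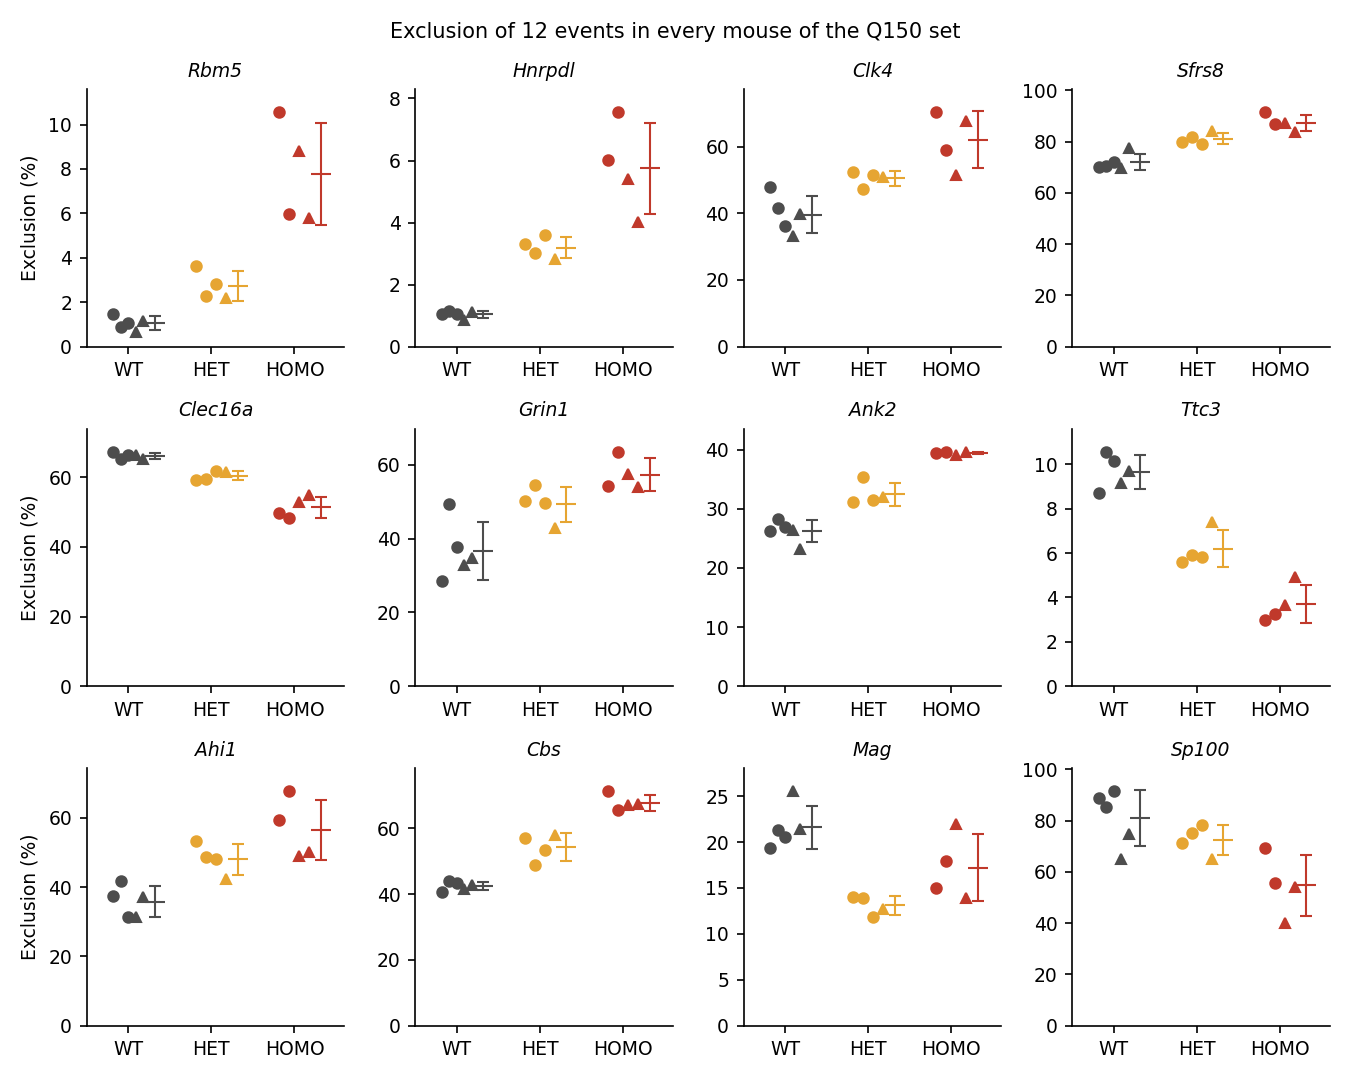
Exclusion (%) of 12 events in every mouse of the Q150 set, each panel with its own axis from 0, circles for mouse numbers under 100, triangles for the 400s, bars for mean and SD. The HOMO mice lie apart from the WT mice in 10 of the 12 panels, and overlap with WT in Mag, where 1 HOMO mouse is at 22.0%, and in Sp100, where WT mice of the 400s are lower than the others; panels of genes with several events show the first one described.

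Channels, receptors and transporters had 13 of 51 events called, 11 higher and 2 lower, a share of 25.5% beside the 28.7% of all events. Grin1 encodes the obligatory subunit of NMDA-type glutamate receptors, whose variants differ in trafficking and gating. Its exclusion (chromosome 2, 25165995 to 25168947) was 28.6%, 49.4%, 37.8%, 32.8% and 34.7% in WT and 54.3%, 63.5%, 57.5% and 53.9% in HOMO mice, on 8748 to 19538 counts per mouse. All HOMO mice lay above all WT mice, though WT mouse 79 came within a few points, and the log2 change was 1.26 ± 0.15 (limma adjusted p = 1.42e-06). The long junction fell (-1.03, against 0.23 for the short), and the total of both changed by -0.45 ± 0.09 (adjusted p = 0.00174). A separate Grin1 event also rose. Slc30a9, a zinc transporter, rose from 5.98% ± 1.03 (SD, n = 5) to 12.8% ± 1.46 (SD, n = 4), and Atp2b1, a calcium pump of the plasma membrane, from 10.6% ± 1.5 to 16.5% ± 1.22. The 2 members that fell were Grik2, a kainate receptor subunit, and Slc4a4, a bicarbonate transporter.

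Cytoskeletal and motor protein genes had the highest share of the larger lists, 41 of 93 events (44.1%), with 35 higher, 6 lower and a median change of 0.34, on a median of 1691 counts per event. Ank2, an ankyrin that ties membrane proteins to spectrin, was excluded at 26.3%, 28.3%, 26.9%, 26.4% and 23.3% in WT and 39.4%, 39.5%, 39.2% and 39.6% in HOMO mice. The 4 HOMO mice lay close together and above all WT mice, and the change was 0.89 ± 0.09 (limma adjusted p = 9.60e-08). Fmnl1, a formin that elongates actin filaments, was excluded at 27.6%, 35.5%, 33.2%, 27.0% and 24.8% in WT and 45.0%, 58.8%, 47.9% and 42.7% in HOMO mice (1.22 ± 0.13). Diap1 (now Diaph1), another formin, rose from 6.73% ± 2.30 to 19.0% ± 7.07, and its HOMO mice under 100 (24.6% and 25.1%) lay above those in the 400s (16.0% and 10.4%). Sorbs2, an adaptor between actin and adhesion or signalling proteins, had 5 of its 6 events called, 3 of them sharing junctions, and Spna2, Clasp1, Ank2 and Epb4.1l3 2 each. Members that fell were Ank1, Ctnna2, Kif21a, 1 event of Sorbs2 and 2 of Dst.

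**Figure D5:**
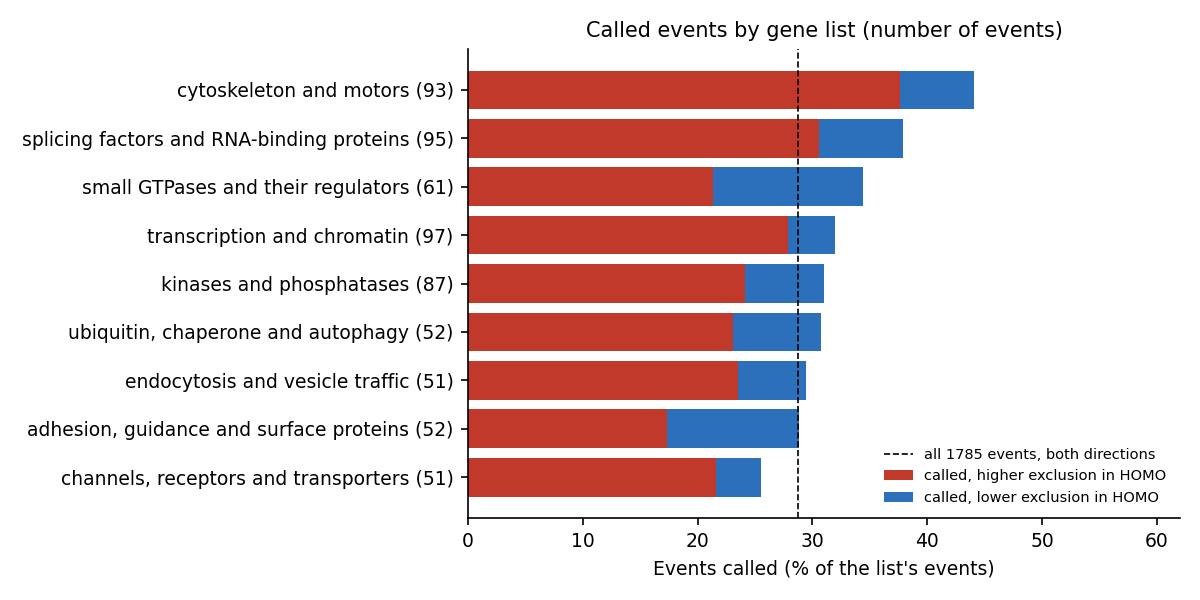
Share of each list's events that were called (%), split into higher (red) and lower (blue) exclusion in HOMO mice, for the 9 lists with more than 10 events, with the 28.7% of all events as a dashed line. Cytoskeleton and motors reaches 44.1% and channels, receptors and transporters 25.5%.

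Kinases and phosphatases had 27 of 87 events called (31.0%, beside 28.7% of all events), 21 higher and 6 lower. Ppp3ca, the catalytic subunit of the calcium-dependent phosphatase calcineurin, was excluded at 37.0%, 36.5%, 36.2%, 32.2% and 35.1% in WT and 47.6%, 44.8%, 41.7% and 38.7% in HOMO mice (0.50 ± 0.08, limma adjusted p = 3.62e-05), and events of the related Ppp3cb and Ppp3cc also rose. Events of Camk2b and Camk2g, subunits of the calcium and calmodulin-dependent kinase of synapses, rose, and those of Camk2d moved in both directions. Genes of small GTPases and their regulators had 21 of 61 events called (34.4%, beside the same 28.7%), 13 higher and 8 lower. In that list Centg1 (now Agap2) rose from 7.16% ± 0.375 (SD, n = 5) to 15.1% ± 4.83 (SD, n = 4), Ralgapa1, part of a GTPase-activating complex for Ral, from 65.2% ± 1.12 to 79.9% ± 3.37, and Arhgap21, a GTPase-activating protein, from 12% ± 2.20 to 23.4% ± 1.13. The groups did not overlap in any of these 3 events.

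Transcription and chromatin genes had 31 of 97 events called (32%, beside 28.7% of all events, of whose calls 81.7% were higher), 27 higher and 4 lower, with a median change of 0.29 on a median of 517 counts. Kdm6a, a demethylase of histone H3, was excluded at 34.4%, 38.4%, 41.8%, 42.6% and 34.4% in WT and 63.9%, 58.1%, 59.1% and 53.2% in HOMO mice (1.20 ± 0.17, limma adjusted p = 1.25e-05). Setd3, a methyltransferase, rose from 5.27% ± 0.367 to 8.88% ± 1.59, while Gse1, a subunit of histone demethylase complexes, fell from 85.4% ± 2.52 to 77.1% ± 3.48. The ubiquitin, chaperone and autophagy list had 16 of 52 events called (30.8%, beside the same 28.7%), 12 higher and 4 lower. Its clearest event was in Dnajc8, a J-domain protein found in spliceosomes, with exclusion of 3.54%, 3.54%, 3.54%, 2.65% and 3.30% in WT and 9.60%, 9.94%, 7.33% and 6.54% in HOMO mice. All HOMO mice were above WT, and the change was 1.43 ± 0.11 (adjusted p = 3.90e-09). Rnf112, a brain RING finger protein, rose from 21.3% ± 2.41 to 37.6% ± 5.17 as the total of its junctions fell by 0.62 ± 0.08 on the log2 scale, and Cul2, a cullin scaffold, rose from 1.69% ± 0.245 to 4.07% ± 0.675.

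Endocytosis and vesicle traffic genes had 15 of 51 events called (29.4%), 12 higher and 3 lower, close to the share of all events. Examples were Dnm1l, the dynamin-related GTPase of mitochondrial fission (2.04% ± 0.337 to 3.27% ± 0.721, with a separate event called lower, 54.3% ± 3.55 to 49.8% ± 2.11), Cadps, a priming factor for dense-core vesicles (1.38% ± 0.383 to 2.30% ± 0.437), and Stx18, a syntaxin of the endoplasmic reticulum, which fell from 6.90% ± 2.27 to 3.83% ± 1.21 and whose groups overlapped across but not within the series. Adhesion, guidance and surface proteins had 15 of 52 events called (28.8%, beside 28.7% of all events), 9 higher and 6 lower, and a median change of 0.08. The falling members included events of Nrxn2 and Nrxn3, presynaptic neurexins, which are known for their many splice forms. Nrxn3 exclusion was 19.7%, 26.0%, 18%, 19.3% and 17.1% in WT and 7.71%, 8.10%, 10.9% and 15.9% in HOMO mice (-1.13 ± 0.18, limma adjusted p = 5.23e-05). The groups did not overlap, and HOMO mouse 421 lay nearest to WT. Aplp2, a relative of the amyloid precursor protein, rose from 6.52% ± 0.631 to 9.95% ± 1.33.

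Among genes whose proteins are known partners of huntingtin or of its associated protein, 3 of 6 events were called, all higher, beside 28.7% of all events called and 81.7% of those higher. Ahi1, a ciliary and neuronal protein that binds the huntingtin-associated protein HAP1, was excluded at 37.5%, 41.8%, 31.3%, 31.4% and 37.1% in WT and 59.4%, 67.6%, 49.0% and 50.2% in HOMO mice (chromosome 10, 20778056 to 20792348). The groups did not overlap, the HOMO mice under 100 were the highest, and the change was 1.28 ± 0.15 (limma adjusted p = 4.95e-07). Itpr1, the inositol trisphosphate receptor of the endoplasmic reticulum, changed by 0.76 ± 0.14 and Kalrn, a guanine nucleotide exchange factor of dendritic spines, by 0.39 ± 0.08, a call that was lost when measured against the median event. Dlg4, a scaffold of the postsynaptic density, lay at 0.05 and was not called. Of genes with exons known to respond to TDP-43, 2 of 5 events were called, in opposite directions, beside 28.7% of all events. Sort1, a sorting receptor, rose from 94.6% ± 0.519 to 96.9% ± 0.545 (0.90 ± 0.12, adjusted p = 3.57e-06), Eif4h, a translation initiation factor, fell from 78.1% ± 1.90 to 71.7% ± 4.29 (-0.52 ± 0.10), and 1 event of Poldip3 (0.85 ± 0.34, adjusted p = 0.068) and 2 of Madd (-0.33 ± 0.28 and 0.28 ± 0.13) did not pass. Whether these events are the exons known to respond was not checked. Positions were compared with GRCm38 alone, where most events lay outside their own gene.

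The 3 genes that the study followed by RT-PCR were chosen on these samples, so their changes are not independent evidence. Mlx, a transcription factor of the Myc network, was excluded at 14.1%, 16.0%, 15.4%, 23.5% and 24.6% in WT and 37.7%, 34.0%, 42.8% and 30.7% in HOMO mice, without overlap (1.28 ± 0.21, limma adjusted p = 6.77e-05). Mag, the myelin-associated glycoprotein, was excluded at 19.3%, 21.3%, 20.5%, 25.5% and 21.4% in WT and 15.0%, 18%, 22.0% and 13.9% in HOMO mice (-0.44 ± 0.13, adjusted p = 0.01). The groups overlapped, since HOMO mouse 403 lay above 4 of the 5 WT mice, WT mouse 404 of its own series among them. Mtap7d2 (now Map7d2), a microtubule-associated protein, was excluded at 2.03%, 2.18%, 2.17%, 2.35% and 3.27% in WT and 4.46%, 3.84%, 3.64% and 2.97% in HOMO mice (0.65 ± 0.16, adjusted p = 0.00391), where WT mouse 404 lay above HOMO mouse 421.

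The remaining events with the largest changes came from varied genes, most of them in none of the lists. Cbs, which makes cystathionine from homocysteine and is a source of hydrogen sulphide, was excluded at 40.7%, 44.0%, 43.4%, 41.7% and 42.8% in WT and 71.2%, 65.7%, 67.0% and 67.3% in HOMO mice (chromosome 17, 31750238 to 31752418). The change of 25.4 points, 1.51 ± 0.14 on the log2 scale (limma adjusted p = 4.49e-08), was many times the spread within either group, and the short junction rose by as much as the long one fell (0.76 and -0.75). 1300010M03Rik (now Retreg3), a receptor for autophagy of the endoplasmic reticulum, rose by 25.3 points to 53.4% ± 3.35 (SD, n = 4), on 110 to 208 counts per mouse. Nasp, a histone chaperone, rose from 85.6% ± 2.39 to 95.1% ± 0.708 by loss of the long junction (-1.51), and Serac1, a phospholipid-remodelling protein, from 5.78% ± 1.89 to 15.7% ± 1.36. Some large log2 changes were small in points. Plekhb1, a pleckstrin-domain protein abundant in myelinating cells and photoreceptors, rose from 0.0413% ± 0.00597 to 0.154% ± 0.0536. Its short junction had 1.35 to 2.42 CPM in WT mice, so the log2 change rests on few counts. Sat1, a polyamine acetyltransferase, rose from 98.6% ± 0.655 to 99.5% ± 0.130, and Fkbp14, a prolyl isomerase of the endoplasmic reticulum, from 97.1% ± 0.364 to 98.9% ± 0.389.

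The largest fall was in Sp100, a component of PML nuclear bodies (chromosome 1, 87575684 to 87588549). Its exclusion was 88.9%, 85.3%, 91.4%, 64.9% and 74.9% in WT and 69.2%, 55.9%, 40.2% and 54.1% in HOMO mice. HOMO mice lay below the WT mice of their own series in both series, while HOMO mouse 34 lay above WT mouse 402, and the change with the series as a term was -1.85 ± 0.23 (limma adjusted p = 1.42e-06). Clec16a, a protein of mitophagy and endosomes, had an event of the alternative 5' splice site type, on at least 6926 counts. Its short junction held 67.3%, 65.2%, 66.5%, 66.5% and 65.3% of the counts in WT and 49.6%, 48.2%, 52.8% and 54.8% in HOMO mice (-0.90 ± 0.08, limma adjusted p = 1.60e-08). Here the WT mice spanned a few points and all HOMO mice lay far below them. Rcc1, the nucleotide exchange factor of Ran, fell from 68.8% ± 4.82 to 52.9% ± 2.86, and Ddef2 (now Asap2), a GTPase-activating protein for Arf, from 75.1% ± 2.47 to 61.5% ± 3.39. Tmem194b (now Nemp2), a protein of the nuclear envelope, fell from 85.2% ± 5 to 72.2% ± 9.19 on 94 to 201 counts, the short junction's share in Fgfr3, a receptor for fibroblast growth factors with an event typed TwoMulx, from 99.3% ± 0.136 to 97.8% ± 0.853, Gabpb1, a transcription factor subunit, from 5.74% ± 0.566 to 2.48% ± 0.641, and Sccpdh from 7.40% ± 1.34 to 3.21% ± 1.21.

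Of 243 genes with more than 1 event, 36 had at least 2 events called, 25 of them with all called events higher, 2 with all lower and 9 with both directions. In 3 of the 9 genes (Camk2d, Sorbs2 and Ttc3) the opposite directions belonged to events that share a junction, so that 1 junction was read as short in 1 event and long in the other. Ttc3, a ubiquitin ligase encoded in the Down syndrome region of its human counterpart, had an event (chromosome 16, 94624975 to 94632439) excluded at 8.69%, 10.6%, 10.2%, 9.17% and 9.70% in WT and 2.98%, 3.26%, 3.65% and 4.91% in HOMO mice (-1.52 ± 0.13, limma adjusted p = 1.08e-08). Its long junction is the short junction of the event at 94624975 to 94631290, which rose from 91.1% ± 0.376 to 94.2% ± 1.08. That junction rose by 0.33 on the log2 scale, and the remaining junction of each event fell, by 1.19 and by 0.38, so both events read the same junction from opposite sides. In Camk2d the shared junction was higher by 1.36, and in Sorbs2 the junction that was short in 1 event and long in another was higher by 0.64. Ktn1, a kinectin of the endoplasmic reticulum, had opposite directions with no shared junction, 59.2% ± 0.904 to 70.8% ± 1.70 in 1 exon and 96.3% ± 0.829 to 94.1% ± 1.01 in another.

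The abundance of an event, short plus long CPM, was the other readout. It was called in 525 of 1785 events (29.4%), 356 higher and 169 lower in HOMO mice. The count was 334 without HOMO mouse 35, 347 without HOMO mouse 34 and 230 without the series term. The split by direction depended on scaling, since the median event lay at 0.07 on the log2 scale and centring on it gave 476 called events, 214 higher and 262 lower, of which 383 were called in the same direction under both scalings. Of the 513 events with changed exclusion 200 also changed in abundance, 131 up and 69 down. Across events the changes of abundance and exclusion correlated with r = -0.01, a description over events that share libraries. Gpr64 (now Adgrg2), an adhesion receptor, had 17.0, 19.6, 22.1, 20.6 and 13.5 CPM in WT and 59.4, 61.1, 37.2 and 37.5 in HOMO mice, a log2 change of 1.41 ± 0.15. All HOMO mice lay above WT, but the named abundance changes were picked for no overlap within the series. Exclusion of the Gpr64 event was not called. Tnk2, a tyrosine kinase, rose by 0.98 ± 0.13, Lass5 (now Cers5), a ceramide synthase, by 0.81 ± 0.10, and Wiz and Zfp521, zinc-finger proteins of chromatin, by 0.87 ± 0.12 and 0.85 ± 0.14. Prom1 rose by 0.84 ± 0.17, with WT values of 29.7 to 35.8 in the low and 84.6 to 102 in the high series, so that it was seen only with the series as a term.

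Among the largest falls in abundance, Slc24a2, a sodium, calcium and potassium exchanger, had 100, 85.2, 88.3, 117 and 117 CPM in WT and 60, 51.0, 64.5 and 64.0 in HOMO mice (-0.79 ± 0.09). Cacna1g, a T-type calcium channel, fell from 53.6 ± 10.5 (SD, n = 5) to 30.4 ± 8.04 (SD, n = 4). Cables1, a regulator of cyclin-dependent kinases, had 350, 679, 590, 496 and 556 CPM in WT and 265, 303, 315 and 307 in HOMO mice (-0.82 ± 0.14), and Crem, a cAMP-responsive transcription factor, changed by -0.87 ± 0.20 and Aifm3 by -0.72 ± 0.11. The named abundance changes kept their direction and stayed under an adjusted p of 0.05 (limma) when centred on the median event and with upper-quartile scaling.

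Mice with 1 mutant allele (Q150 HET, 4 mice) share the WT controls, so their values are given beside those of HOMO mice. HET means lay between WT and HOMO in Rbm5 (2.73% ± 0.660), Hnrpdl (3.19% ± 0.334), Cbs (54.3% ± 4.22), Grin1 (49.3% ± 4.74), Ttc3 (6.19% ± 0.833) and Sp100 (72.5% ± 5.79). Mag was lower in HET (13.1% ± 1.02) than in HOMO mice (17.2% ± 3.64), and Mtap7d2 was at 2.40% ± 0.260 in HET and 2.40% ± 0.501 in WT mice, below HOMO mice by 0.65 on the log2 scale (limma adjusted p = 0.0179). HOMO and HET mice themselves differed in 80 of 1785 events (4.48%), 72 higher in HOMO, and among them were Rbm5 (1.61, limma adjusted p = 0.0013), Hnrpdl (0.93), Nasp (1.11), Cbs (0.82), Dnajc8 (0.67), Slc30a9 (0.83), Ttc3 (-0.85) and Clec16a (-0.56), all as log2 differences. Mag (0.41) did not pass between HOMO and HET mice.

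The change in Q150 HOMO mice was also set against that in Q175 HOMO mice (175 glutamines, stated age 18 months) and in R6/2 mice (a transgene of a huntingtin fragment, stated age 3 months), each against the WT mice whose files list the same events, over the 1662 events listed for all 3. The titles of the Q175 mice and of their WT mice also name Q150, so those WT mice were placed by event list and not by title. The change differed from that in Q175 in 56 events (3.37%), larger toward exclusion in Q150 in 45 of them, and from that in R6/2 in 185 (11.1%), larger toward exclusion in Q150 in 82. Line, age and library set differ together between these groups and cannot be told apart. Nasp changed by 1.69 in Q150 and 0.31 in Q175 HOMO mice (difference 1.37, limma adjusted p = 0.00268), and Ttc3 by -1.52, against -0.40 in Q175 and -0.36 in R6/2 mice. Hnrpdl lay between the other models, with 2.53 against 1.78 in Q175 and 4.72 in R6/2 mice, and both differences passed.

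The kind of event and its depth were compared last. Of 1720 cassette exons 500 were called (29.1%, 413 higher, 87 lower), beside 28.7% of all events. Of 30 alternative 3' splice sites 3 were called (10%), and of 20 alternative 5' splice sites 6 (30%, 4 higher). Of 15 events typed TwoMulx 4 were called (26.7%), all lower, which there means only a smaller share of the junction named short. By WT exclusion, 85 of the 273 events under 5% were called (31.1%), 81 of them higher. Of the 156 events at 95% or more 28 were called (17.9%), 15 of them higher. These strata were cut on the WT values from which the change is measured. That favours rises at the low end and falls at the high end. The share called was 17.3% among the 446 events with the fewest counts and 42.1% among the 447 with the most. It was 35.9% for events spanning under 2701 bases and 20.6% for those of 12527 bases or more.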

How the data were processed

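RASL-seq libraries were made from total RNA with probe pairs on known junctions, oligo(dT) selection, ligation and PCR. Aligner and version are not given in the sources used here. The deposited values, of other type than a standard unit, are short and long junction counts per event as the authors left them, without normalization, with commas as digit separators that were removed. No junction count was under 4, which is what a filter before deposit would leave. The labels name mm10, but of 1738 events with a matched RefSeq symbol only 242 (13.9%) lay inside their GRCm38 gene, so positions are printed as deposited and their build is unsettled. No molecular identifiers are stated, so counts are not counts of independent molecules.

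log2((short + 0.5) / (long + 0.5)) was fitted by limma 3.58.1 (R 4.3.3) with genotype and series, variances moderated with a trend on junction counts, and Benjamini-Hochberg adjustment over all 1785 events. All had a mean of at least 10 counts. Abundance was fitted likewise on log2 CPM (counts scaled to a common library total). That scaling is sensitive to composition, so the centred result stands beside it. Comparison with HET mice used 13 mice, and comparison with other models a joint fit. Tests were tried on simulated data. P-values measure the spread between mice of 1 line.

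Named events were those of Htt, Tardbp, Mettl3, Mtap7d2, Mag and Mlx, and among called events with at least 100 counts and no overlap within the series the 12 largest rises and 8 largest falls in log2 and 5 each in points, up to 3 called events per list by p, events of up to 5 genes called in both directions, and up to 6 abundance changes each way. The abundance changes were picked for no overlap within the series too. For events picked in this way, the absence of overlap within the series is not a result. Other genes named from a list were named after their values were seen. A few events that the rule picks are not reported here, though counts over events and lists include them. The members and lists were chosen with earlier results of these data known. Figures were drawn with matplotlib 3.10.9.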

Additional observations from a re-analysis of the deposited data

Results flagged for a closer look

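In 9 of 152 groups of mice (5.92%), 1 mouse stood apart from the others of its group by Dixon's ratio, close to the 1 in 20 that chance flags. Mtap7d2 exclusion was 3.27% in WT mouse 404 and 2.03% to 2.35% in the others. Exclusion of Rbm5 event 4353, the one at 107656819 to 107659239, was 10.8% in HOMO mouse 34 and 8.04% to 8.46% in the others. Nasp exclusion was 94.1% in HOMO mouse 421 and 95.4% to 95.6% in the others. Sfrs8 exclusion was 77.5% in WT mouse 404 and 69.8% to 72% in the others. Slc30a9 exclusion was 10.6% in HOMO mouse 421 and 13.3% to 13.6% in the others. Dnajc8 exclusion was 2.65% in WT mouse 402 and 3.3% to 3.54% in the others. Itpr1 exclusion was 5.93% in WT mouse 404 and 3.94% to 4.38% in the others. Kalrn exclusion was 65.7% in HOMO mouse 421 and 68.4% to 68.7% in the others. Zfp521 had 27.2 CPM in WT mouse 79, against 17.5 to 20.2 in the others.

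The change in exclusion in Q150 HOMO mice differed from that in Q175 HOMO mice, by a test of the difference itself (limma, adjusted p under 0.05), in 13 of the 61 named events listed for all 3 models, beside 56 of all 1662 events (3.37%). Most named events were picked for large changes in Q150 HOMO mice, which favours a larger change there. Line, age and library set cannot be told apart in these differences. Hnrpdl event 9429 changed by 2.53 in Q150 and 1.78 in Q175 HOMO mice, a difference of 0.76 ± 0.21 (SE). Nasp changed by 1.69 in Q150 and 0.31 in Q175 HOMO mice, a difference of 1.37 ± 0.26 (SE). Cbs changed by 1.51 in Q150 and 0.70 in Q175 HOMO mice, a difference of 0.81 ± 0.21 (SE). Sp100 changed by -1.85 in Q150 and -0.06 in Q175 HOMO mice, a difference of -1.79 ± 0.47 (SE). Ttc3 event 9430 changed by -1.52 in Q150 and -0.40 in Q175 HOMO mice, a difference of -1.12 ± 0.21 (SE). Clec16a changed by -0.90 in Q150 and -0.30 in Q175 HOMO mice, a difference of -0.60 ± 0.12 (SE). Slc30a9 changed by 1.20 in Q150 and 0.30 in Q175 HOMO mice, a difference of 0.91 ± 0.17 (SE). Ank2 changed by 0.89 in Q150 and 0.36 in Q175 HOMO mice, a difference of 0.52 ± 0.14 (SE). Ppp3ca changed by 0.50 in Q150 and 0.04 in Q175 HOMO mice, a difference of 0.46 ± 0.11 (SE). Dnajc8 changed by 1.43 in Q150 and 0.50 in Q175 HOMO mice, a difference of 0.93 ± 0.17 (SE). Stx18 changed by -0.81 in Q150 and 0.27 in Q175 HOMO mice, a difference of -1.08 ± 0.28 (SE). Aplp2 changed by 0.68 in Q150 and -0.02 in Q175 HOMO mice, a difference of 0.70 ± 0.15 (SE). Sorbs2 event 4048 changed by 1.09 in Q150 and 0.29 in Q175 HOMO mice, a difference of 0.80 ± 0.19 (SE).

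The change in exclusion in Q150 HOMO mice differed from that in R6/2 mice, by a test of the difference itself (limma, adjusted p under 0.05), in 11 of the same 61 named events, picked in the same way, beside 185 of all 1662 events (11.1%). Line, age and library set cannot be told apart in these differences. Mag changed by -0.44 in Q150 and -1.68 in R6/2 mice, a difference of 1.24 ± 0.22 (SE). Mtap7d2 changed by 0.65 in Q150 and 1.44 in R6/2 mice, a difference of -0.79 ± 0.24 (SE). Hnrpdl event 9429 changed by 2.53 in Q150 and 4.72 in R6/2 mice, a difference of -2.19 ± 0.22 (SE). Ttc3 event 9430 changed by -1.52 in Q150 and -0.36 in R6/2 mice, a difference of -1.15 ± 0.23 (SE). Clk4 changed by 1.36 in Q150 and 0.19 in R6/2 mice, a difference of 1.17 ± 0.37 (SE). Ahi1 changed by 1.28 in Q150 and 2.27 in R6/2 mice, a difference of -0.99 ± 0.22 (SE). Clec16a changed by -0.90 in Q150 and -0.32 in R6/2 mice, a difference of -0.58 ± 0.13 (SE). Fmnl1 changed by 1.22 in Q150 and 3.77 in R6/2 mice, a difference of -2.55 ± 0.63 (SE). Gse1 changed by -0.85 in Q150 and -1.67 in R6/2 mice, a difference of 0.82 ± 0.19 (SE). Dnm1l changed by 0.72 in Q150 and 1.45 in R6/2 mice, a difference of -0.73 ± 0.24 (SE). Hnrpdl event 8890 changed by -0.50 in Q150 and -2.04 in R6/2 mice, a difference of 1.54 ± 0.19 (SE).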

How the results depend on the processing

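The called changes of exclusion numbered 387 to 501 when 1 mouse was left out (fewest without HOMO mouse 35), and 148 (131 higher) in the high series alone, a fit on 2 mice against 2. Other settings gave 387 (low series alone) to 539 (with HET mice in the fit), among them 480 by the quasi-binomial model on counts, 396 without the series term and 410 without the variance trend. Abundance calls fell from 525 to 230 without the series term, and leaving out 1 mouse gave 334 (without HOMO mouse 35) to 561, with 347 without HOMO mouse 34; upper-quartile scaling gave 467, 274 higher. The difference in mean exclusion ranged from 1.73 to 1.98 points without 1 mouse. No named event reversed direction in any setting; 1279 repeats of the named exclusion changes stayed on their side of the threshold and 35 lost the call. In the high series alone the call was lost for Mag, Mlx, Mtap7d2, Fkbp14, Fgfr3, Sccpdh and Gabpb1 among others. Outside that fit Mag and Tmem194b lost it without the variance trend, and Sccpdh and Tmem194b without HOMO mouse 35. Sat1 and Gabpb1 lost it in the low series alone, Kalrn against the median event, and Camk2d event 3972 in 6 settings. Prom1 abundance lost its call without the series term. The cause was not tested. The omission of events that reuse a junction was chosen after seeing the data. No paired analysis was possible because mouse numbers name single mice and none is shared by groups. The share of events called was 17.3% among those with the fewest counts and 42.1% among those with the most.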
